A study of Mus musculus with 4 samples.

Results

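The genes of the proteasome were examined in mouse hematopoietic stem and progenitor cells (HSPCs) and the cells sorted with them, in 4 droplet scRNA-seq libraries. The set was every gene whose symbol starts with *Psma*, *Psmb*, *Psmc*, *Psmd*, *Psme*, or *Psmg* followed by a digit, without pseudogenes marked -ps, which gave 49 of the 32285 genes counted. All mice were C57BL/6J and 8 to 16 weeks old. CBM and CS are bone marrow (BM) and spleen of control mice, and TBM and TS are BM and spleen of mice bearing PyMT-B6, a mammary tumor line that grows in syngeneic hosts. Cells were depleted of Lin+ cells, sorted as CD45+ c-Kit+ cells with or without Sca-1 and as CD45- cells by CD31 and CD51, and the gates were combined at equal ratios. Each group is 1 library, and the number of mice behind it is not given in the sources used here. The spread between mice is therefore not measured, no difference has a replicate check, and no test was made. Intervals are 95% intervals that cover counting error only, exact for levels, shares, and ratios, and combined from the exact intervals of both shares for a difference in share.

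The 26S proteasome degrades proteins tagged with ubiquitin. Its 20S core is a stack of rings built from alpha subunits, which gate the chamber, and beta subunits, of which PSMB5, PSMB6, and PSMB7 carry the peptidase sites. The 19S particle recognizes, unfolds, and feeds substrates. Under interferon, and without it in many immune cells, PSMB8, PSMB9, and PSMB10 take the places of PSMB5, PSMB6, and PSMB7, which gives the immunoproteasome, known for making peptides that load onto MHC class I after transport by TAP. PSME1 and PSME2 form PA28, an interferon-inducible cap that opens the core.

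*Psmb8* and *Psmb9* lie beside the TAP genes in the MHC. In GRCm38, *Psmb9* spans chr17:34181987-34187764 on the minus strand, *Tap1* chr17:34187553-34197225 on the plus strand, *Psmb8* chr17:34197721-34201454 on the plus strand, and *Tap2* chr17:34203527-34216321 on the plus strand. *Psmb9* and *Tap1* are transcribed away from each other, their spans overlap on opposite strands, and their promoter windows share 275 bases. The windows of the inducible catalytic genes are shown to set them beside those of constitutive partners and of *Psme1*. They are from RefSeq (GRCm38.p6), with 250 bases before and 50 after the RefSeq start, 5′ to 3′ on the strand of the gene. The gene spans are from GENCODE, where *Psme1* spans chr14:55578123-55581529. The windows of *Psmb8*, *Psmb9*, and *Psme1* lie wholly inside their GENCODE spans and hold no bases before the GENCODE gene start.

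Psmb8 (chr17:34197945-34198244, plus strand): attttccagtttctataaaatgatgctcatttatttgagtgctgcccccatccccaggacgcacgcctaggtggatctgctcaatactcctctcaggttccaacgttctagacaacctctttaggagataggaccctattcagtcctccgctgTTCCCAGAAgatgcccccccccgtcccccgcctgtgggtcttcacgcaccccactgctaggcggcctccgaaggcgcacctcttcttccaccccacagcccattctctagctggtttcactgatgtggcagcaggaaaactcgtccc
Psmb9 (chr17:34187281-34187580, minus strand): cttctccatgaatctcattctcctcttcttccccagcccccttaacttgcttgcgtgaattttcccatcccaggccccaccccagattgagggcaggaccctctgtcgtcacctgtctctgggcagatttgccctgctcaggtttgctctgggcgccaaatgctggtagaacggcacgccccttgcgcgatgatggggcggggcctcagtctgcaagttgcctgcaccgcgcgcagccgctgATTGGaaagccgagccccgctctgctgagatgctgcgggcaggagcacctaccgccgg
Psmb10 (chr8:105938343-105938642, minus strand): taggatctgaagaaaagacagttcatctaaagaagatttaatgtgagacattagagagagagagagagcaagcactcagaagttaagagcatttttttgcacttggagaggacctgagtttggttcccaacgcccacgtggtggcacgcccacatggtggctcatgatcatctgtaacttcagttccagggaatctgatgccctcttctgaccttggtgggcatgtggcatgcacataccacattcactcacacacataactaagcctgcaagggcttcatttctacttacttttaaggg
Psmb5 (chr14:54617946-54618245, minus strand): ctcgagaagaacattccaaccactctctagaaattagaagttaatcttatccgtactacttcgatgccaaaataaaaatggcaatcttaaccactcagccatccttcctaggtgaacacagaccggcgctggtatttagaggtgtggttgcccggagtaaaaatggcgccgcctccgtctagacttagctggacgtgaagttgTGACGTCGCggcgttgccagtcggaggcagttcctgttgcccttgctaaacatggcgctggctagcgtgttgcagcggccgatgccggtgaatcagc
Psmb6 (chr11:70525107-70525406, plus strand): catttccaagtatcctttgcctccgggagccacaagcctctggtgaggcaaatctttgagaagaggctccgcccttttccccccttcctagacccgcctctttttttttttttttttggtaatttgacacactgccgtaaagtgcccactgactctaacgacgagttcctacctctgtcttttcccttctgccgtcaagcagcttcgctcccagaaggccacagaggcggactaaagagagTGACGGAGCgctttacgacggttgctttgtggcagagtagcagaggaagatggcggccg
Psme1 (chr14:55578244-55578543, plus strand): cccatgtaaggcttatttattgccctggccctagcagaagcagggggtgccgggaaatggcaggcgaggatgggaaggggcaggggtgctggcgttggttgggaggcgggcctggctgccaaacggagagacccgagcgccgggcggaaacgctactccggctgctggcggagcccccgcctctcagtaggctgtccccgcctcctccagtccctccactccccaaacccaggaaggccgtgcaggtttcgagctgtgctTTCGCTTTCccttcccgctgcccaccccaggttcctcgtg

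Capitals mark matches on either strand to 5 short patterns. These were the ISRE core GAAANNGAA of interferon-activated factors, the GAS pattern TTCNNNGAA of interferon gamma-activated sites, the antioxidant element core TGACNNNGC, the kappa B pattern GGNNTTTCC, and CCAAT. The capitals above are GAS in *Psmb8*, CCAAT in *Psmb9*, the antioxidant core in *Psmb5* and *Psmb6*, and the ISRE core in *Psme1*. The window of *Psmb10* held none of these patterns, and neither did the windows of *Psme2*, which are not shown. Such short patterns are common. The ISRE core was in 8.56% of 32851 windows of all genes, GAS in 8.30%, the antioxidant core in 12.4%, kappa B in 5.82%, and CCAAT in 37.4%. Of the 41 members with a window, 7 held the ISRE core, 3 GAS, 6 the antioxidant core, 2 kappa B, and 15 CCAAT. A member counted once if any of its windows held the pattern, with 44 windows in all. The percents are per window, so the units differ.

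Barcodes with at least 1000 genes and at most 10% mitochondrial UMIs were kept, 3497 of CBM and 4340 of TBM, and 3236 of CS and 5188 of TS, with medians between 13738 and 26808 UMIs. Of the barcode sequences, 27 occurred in more than 1 library. Cells were clustered without the members, MHC class I genes, or interferon response genes, and 24 of 38 clusters were named from marker genes. HSPC-like cells numbered 819 and 915 in CBM and TBM and 149 and 695 in CS and TS, and came from 3 clusters. Cluster 0 held most of them in CBM, TBM, and CS, and cycling cluster 7 most in TS. Cluster 19, which has *Ly6a* and the stress and inflammatory genes *Dusp2*, *Cxcl2*, *Egr1*, *Socs3*, and *Icam1* among its leading genes, held 7 cells of TBM, 34 of CS, and 273 of TS. Although CD45- cells had been sorted, the stromal markers named a cluster of only 2 cells, and no stromal class could be described.

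In HSPC-like cells the inducible catalytic genes together gave more UMIs than their constitutive partners together in every library, and their share was lower in both tumor libraries. The share is the UMIs of *Psmb8*, *Psmb9*, and *Psmb10* as a percent of those of the 6 catalytic genes. It was 63.3% (62.5 to 64.0) in CBM and 59.2% (58.5 to 60.0) in TBM, against 63.8% (62.3 to 65.2) in CS and 58.5% (57.7 to 59.3) in TS. The intervals of the control libraries overlapped each other, as did those of the tumor libraries, and control and tumor did not overlap. The difference of tumor minus control was -4.03 points (-5.09 to -2.97) in BM and -5.26 points (-6.91 to -3.60) in spleen. When cells were taken without clusters, by at least 1 UMI each of *Ptprc*, *Cd34*, *Kit*, and *Ly6a* (the 4-gene gate), the difference was -6.79 points in BM and -9.37 in spleen. Between tissues the difference in HSPC-like cells was 0.527 points (-1.13 to 2.17) for CS minus CBM and -0.701 points (-1.77 to 0.365) for TS minus TBM, both with intervals that include 0. With the 4-gene gate CS minus CBM was 2.09 points, and within cluster 0 TS minus TBM was -1.79 points.

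*Psmb8*, which encodes the inducible beta5 subunit with chymotrypsin-like activity, gave the most UMIs of the 6 genes. It had 427 in CBM and 429 in TBM, against 487 in CS and 518 in TS, in UPM (UMIs per 1e+06 UMIs of the class and library). TBM and CBM were level, and TS was above CS by 0.09 (0.01 to 0.17) on the log2 scale. These UMIs are counted at the 3′ end of molecules, so no value is divided by gene length, although capture can differ between genes.

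*Psmb9*, the inducible beta1 subunit, had 197 UPM in CBM and 174 in TBM, against 227 in CS and 198 in TS, lower with tumor in each tissue. Its log2 ratio of tumor over control was -0.18 (-0.26 to -0.10) in BM and -0.20 (-0.32 to -0.08) in spleen. *Psmb10*, the inducible beta2 subunit, had 98.6 in CBM and 111 in TBM, against 118 in CS and 120.3 in TS, with CBM below the other libraries. Its log2 ratio was 0.17 (0.07 to 0.28) in BM and 0.03 (-0.13 to 0.20) in spleen. The inducible genes thus did not move as a group, and their sum differed by -0.02 (-0.06 to 0.02) in BM and 0.01 (-0.05 to 0.07) in spleen.

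The constitutive partners were each higher with tumor in both tissues. *Psmb5*, the constitutive beta5 subunit, had 171 UPM in CBM and 209 in TBM, against 205 in CS and 253 in TS, with log2 ratios of 0.29 (0.21 to 0.37) in BM and 0.30 (0.18 to 0.43) in spleen. *Psmb6*, the beta1 subunit with caspase-like activity, had 148 in CBM and 164 in TBM, against 158 in CS and 196 in TS, with log2 ratios of 0.15 (0.07 to 0.24) and 0.31 (0.17 to 0.45). *Psmb7*, the beta2 subunit with trypsin-like activity, had 101 in CBM and 119 in TBM, against 109 in CS and 144 in TS, with log2 ratios of 0.23 (0.13 to 0.33) and 0.39 (0.23 to 0.56). For these genes CBM was lowest, TS was highest, and TBM and CS lay between them. Their sum differed by 0.23 (0.18 to 0.28) in BM and 0.33 (0.25 to 0.41) in spleen. Over the HSPC-like cells as a whole, the lower share thus came with higher constitutive UMIs and a level inducible sum. Single clusters differed in this, as given below.

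By position in the core, the beta1 pair differed most. *Psmb9* made up 57.1% of the *Psmb9* and *Psmb6* UMIs in CBM and 51.4% in TBM, against 58.9% in CS and 50.2% in TS. *Psmb8* made up 71.4%, 67.3%, 70.4%, and 67.2% of the beta5 pair, and *Psmb10* 49.4%, 48.4%, 51.8%, and 45.6% of the beta2 pair. Control and tumor intervals were apart for every pair except beta2 in BM, where they were 47.4 to 51.3 in CBM and 46.7 to 50.1 in TBM.

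In HSPC-like cells the PA28 genes *Psme1* and *Psme2* went in opposite directions. *Psme1*, the PA28 alpha subunit, had 344 UPM in CBM and 322 in TBM, against 353 in CS and 309 in TS, with log2 ratios of -0.10 (-0.15 to -0.04) in BM and -0.19 (-0.29 to -0.10) in spleen. *Psme2*, the PA28 beta subunit, had 113 in CBM and 139 in TBM, against 126 in CS and 171 in TS, with log2 ratios of 0.30 (0.20 to 0.40) and 0.44 (0.28 to 0.60). *Psme3*, which encodes the nuclear activator PA28 gamma, had 53.6 in CBM and 54.8 in TBM, against 55.1 in CS and 53.8 in TS, and its 4 intervals overlapped. *Psme4*, which encodes the activator PA200, was 0.19 (0.03 to 0.36) in BM and 0.11 (-0.17 to 0.40) in spleen.

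**Figure D1:**
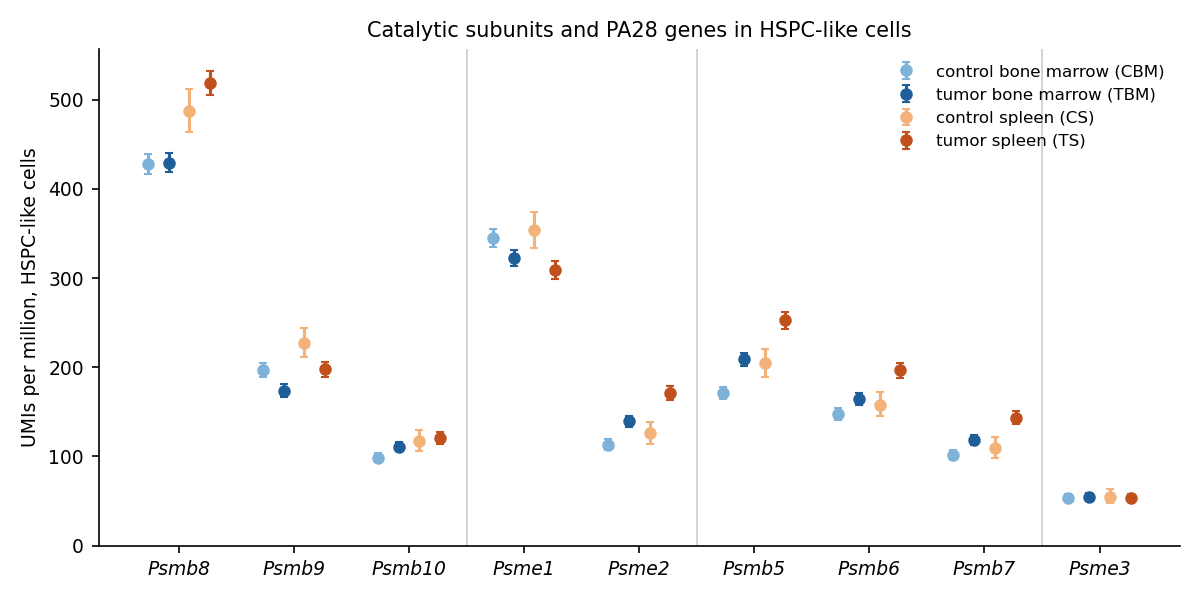
UPM in HSPC-like cells for the 6 catalytic genes, *Psme1*, *Psme2*, and *Psme3*, with 1 point for each of the 4 libraries and bars for exact 95% Poisson intervals. *Psmb9* and *Psme1* sit lower in TBM than in CBM and lower in TS than in CS, and *Psmb5*, *Psmb6*, *Psmb7*, and *Psme2* sit higher.

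Most of the core and the 19S particle were higher with tumor by a small amount. All members together gave 5746 UPM in CBM and 6430 in TBM, against 6199 in CS and 7364 in TS, log2 ratios of 0.16 (0.15 to 0.18) in BM and 0.25 (0.23 to 0.27) in spleen. Within HSPC-like cluster 0 the spleen value was 0.05. At a level of at least 20 UPM on average over the 4 libraries there were 46 members. Their median log2 ratio was 0.19 for TBM over CBM and 0.31 for TS over CS, where the medians of the 6241 genes at this level were 0.02 and 0.00. Ratios above 0 were found for 40 of 46 in BM, against 53.0% of all genes, and 39 of 46 in spleen, against 50.2%.

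None of these 46 members differed by 1.5-fold in any of the 4 comparisons, a size reached by 6.35% of all genes for TS over CS, 2.66% for TBM over CBM, 3.62% for TS over TBM, and 2.92% for CS over CBM. At 1.2-fold, a size chosen after the ratios were seen, 28 of 46 members were higher in TS than in CS, against 18.5% of all genes, and 1 was lower, against 18.5%. For TBM over CBM, 13 were higher, against 12.2%, and 1 was lower, against 9.68%. The lower member was *Psmd5* in both. Within HSPC-like cluster 0 alone, 11 of 45 were higher in TS than in CS, against 28.2% of all genes there, and 7 lower, against 20.8%, so the members' share of higher genes was near that of all genes. Within cluster 7 alone, 28 of 46 were higher in TS than in CS, against 19.2%, and 2 lower, against 25.9%. With a mean over cells in place of summed UMIs, 7 were higher in TBM than in CBM, against 12.3%, and with the 4-gene gate 21, against 1176 of 6204 genes.

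The 7 alpha subunits were above 0 in both tissues, from 0.15 to 0.39 in BM and from 0.21 to 0.39 in spleen. *Psma3*, an alpha ring subunit, had 193 UPM in CBM and 253 in TBM, against 233 in CS and 301 in TS, and both tumor libraries were above both controls. The 4 beta subunits without peptidase sites were also above 0 in both. *Psmb3*, 1 of these structural subunits, had 171 in CBM and 221 in TBM, against 164 in CS and 231 in TS, with log2 ratios of 0.37 (0.29 to 0.44) in BM and 0.49 (0.35 to 0.63) in spleen, and here too both tumor libraries were above both controls.

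In the 19S particle all 17 members were above 0 in both tissues, against 53.0% of all genes in BM and 50.2% in spleen. In BM the intervals of *Psmc1*, *Psmc2*, *Psmc3*, *Psmc6*, *Psmd2*, *Psmd6*, *Psmd11*, and *Psmd12* included 0. The base unfolds substrates with the ATPases encoded by *Psmc1* to *Psmc6*. Its sum differed by 0.14 (0.10 to 0.18) in BM and 0.34 (0.28 to 0.40) in spleen. *Psmc3*, an ATPase, was 0.01 (-0.09 to 0.11) in BM and 0.42 (0.25 to 0.60) in spleen. The lid removes ubiquitin chains through PSMD14. Its sum differed by 0.21 (0.17 to 0.25) in BM and 0.36 (0.30 to 0.42) in spleen. *Psmd13*, a structural lid subunit, had the highest ratio of the 46 members in spleen, 0.58 (0.38 to 0.78), with 72.4 UPM in CBM and 91.5 in TBM, against 76.6 in CS and 114 in TS. *Psmb3* and *Psmg3* were next.

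The assembly chaperones, which help build the particle and leave it, did not share this pattern, with 3 of 7 above 0 in each tissue. *Psmd5*, which binds a base ATPase during assembly, had 41.5 UPM in CBM and 32.2 in TBM, against 41.5 in CS and 34.2 in TS. Its ratio was the lowest of the 46 members, -0.36 (-0.54 to -0.18) in BM and -0.28 (-0.57 to 0.02) in spleen. *Psmb9* and *Psme1* followed it in spleen, and *Psmb9* and *Psmg2* in BM. *Psmg1*, which pairs with PSMG2 in alpha ring assembly, had the highest ratio in BM, 0.39 (0.22 to 0.56), and was 0.10 (-0.16 to 0.35) in spleen. *Psma3* and the base chaperone *Psmd9* were next in BM, at 0.39 and 0.37. *Psmg2* was -0.13 (-0.28 to 0.03) in BM. *Psmg3*, which pairs with PSMG4, was 0.36 (0.18 to 0.54) in BM and 0.45 (0.16 to 0.75) in spleen, whereas *Psmg4* was -0.06 (-0.16 to 0.05) and -0.12 (-0.30 to 0.06).

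**Figure D2:**
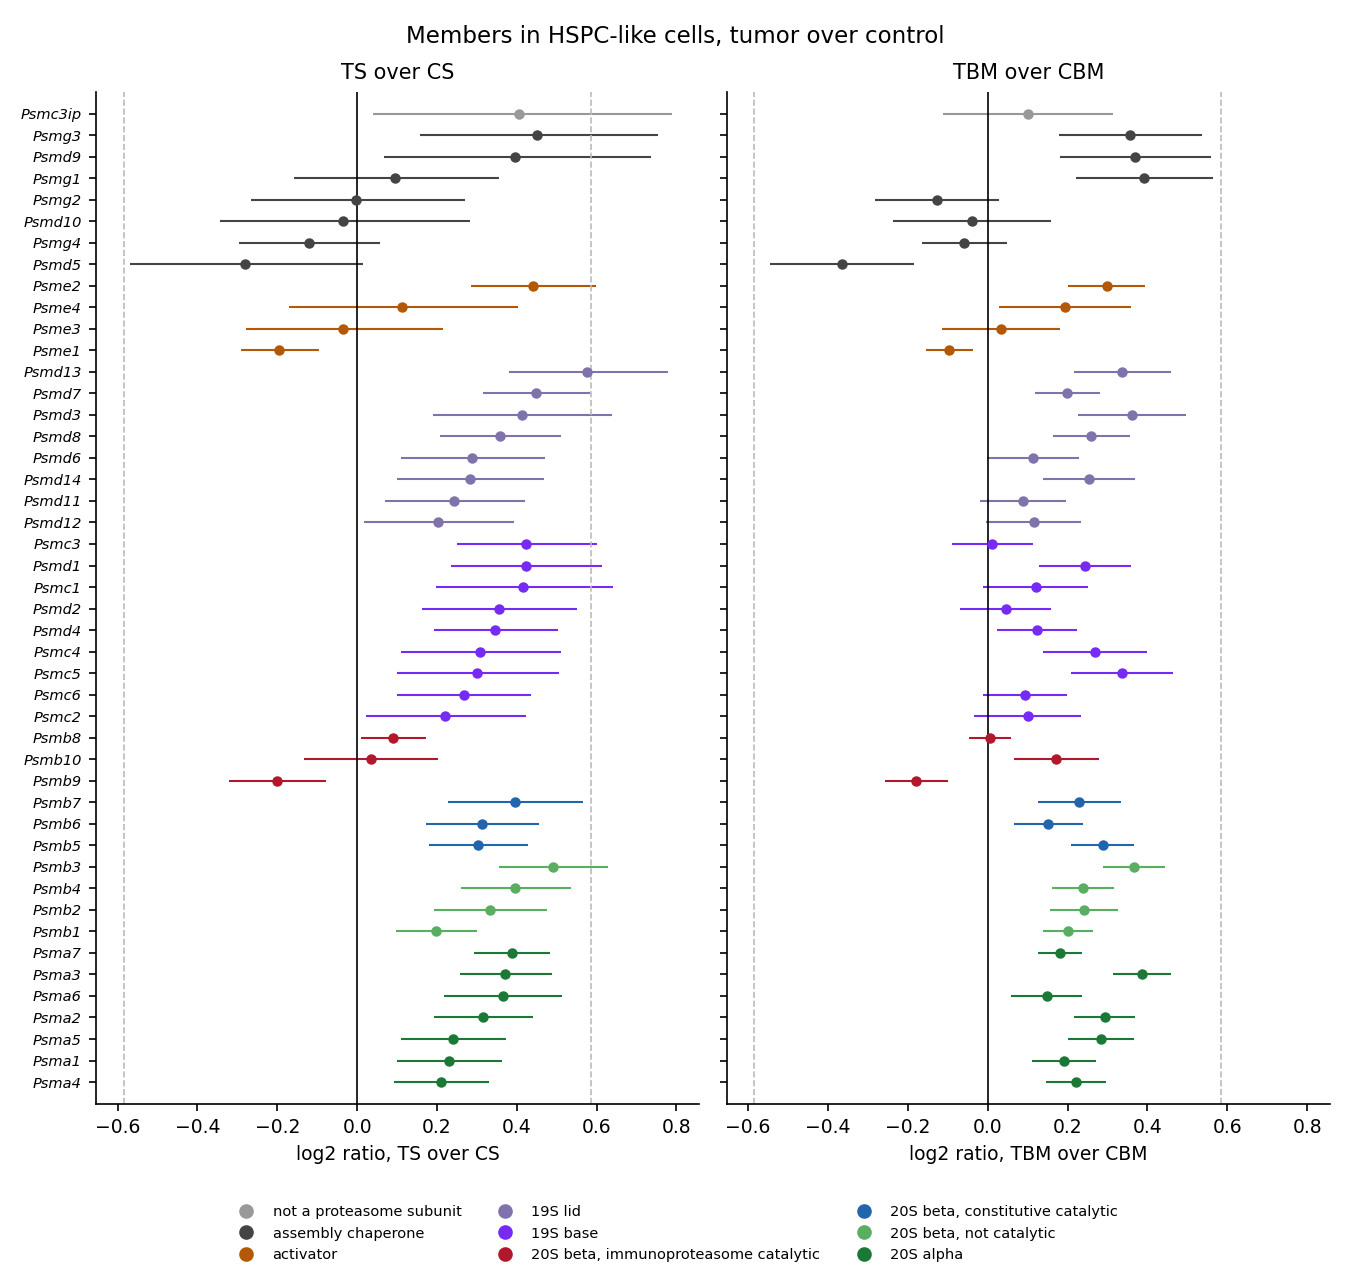
Log2 ratios of UPM in HSPC-like cells for the 46 members at the minimum level, TS over CS on the left and TBM over CBM on the right, colored by role, with exact 95% counting intervals and dashed lines at 1.5-fold. Alpha, constitutive beta, and 19S subunits lie to the right of 0 in both, and *Psmb9*, *Psme1*, and *Psmd5* lie to the left.

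Between tissues, the summed members were 0.11 (0.09 to 0.13) in controls (CS over CBM) and 0.20 (0.18 to 0.21) with tumor (TS over TBM). With a scaling total that leaves out mitochondrial, ribosomal protein, and hemoglobin genes, CS over CBM was 0.0555, and within cluster 0 TS over TBM was 0.0481. At 1.2-fold 4 of the 46 members were higher in CS than in CBM, against 13.2% of all genes, and 0 lower, against 8.6%. In TS over TBM, 13 were higher, against 14.0%, and 0 lower, against 12.2%. These counts depended on the setting. The number higher in CS became 11 with the 4-gene gate, against 17.1%, and 9 within cluster 0, against 15.4%. It became 7 with a mean over cells, against 15.3%, and 7 within cluster 7, against 20.8%. The number higher in TS became 6 with the other scaling total, against 9.14%, and 5 within cluster 7, against 9.87%. Among the 46, for CS over CBM *Psmg1* at 0.49 and the ATPases *Psmc2* at 0.34 and *Psmc4* at 0.32 were highest, and *Psmc3* at -0.15, the structural beta subunit *Psmb4* at -0.14, and *Psmc3ip* at -0.13 lowest. Among the same members, for TS over TBM *Psmc2* and the ubiquitin receptor *Psmd4*, both at 0.46, and *Psmc4* at 0.36 were highest, and *Psme4* at -0.10, *Psme1* at -0.06, and *Psmg4* at -0.03 lowest. *Psmb9* was higher in spleen in both, at 0.21 and 0.19. The 4 comparisons draw on the same 4 libraries.

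The 3 members under the minimum level were *Psmb11*, the catalytic subunit of the thymus proteasome, at 0.115 UPM on average, *Psme2b*, a near copy of *Psme2*, at 2.74, and *Psma8*, the alpha subunit of the testis proteasome, at 4.997. Whether reads of *Psme2b* and *Psme2* can be told apart was not tested. Exons of *Psme2b* also overlap those of *9930111J21Rik1* on the same strand. The counts of these 3 members were low and their intervals wide. *Psma8* was -0.08 (-0.59 to 0.42) in BM and 0.63 (-0.24 to 1.62) in spleen, *Psme2b* -0.75 (-1.45 to -0.08) and 0.13 (-1.04 to 1.47), and *Psmb11* had 2 UMIs in CBM, 1 in CS, and 0 in TBM and TS. Just above the minimum were *Psmc3ip*, at 26.5, and the base chaperone *Psmd10*, at 32.4. *Psmc3ip* fits the symbol rule but encodes a factor of meiotic recombination.

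The 16 genes of G2 and mitosis summed to 1428 UPM in CBM and 1403 in TBM, against 1750 in CS and 2180 in TS. They were thus higher in spleen, highest in TS, and level between CBM and TBM, and their part in the summed level was not tested beyond the values of single clusters. Within cycling cluster 7 the members summed to 6334 in CBM and 7117 in TBM, against 6650 in CS and 7946 in TS, and within cluster 0 to 5498, 6033, 6022, and 6237. The log2 ratio of TS over CS was 0.26 in cluster 7, with 371 and 38 cells, and 0.05 in cluster 0, with 51 and 77 cells. In cluster 19 the members summed to 5686 in CS, with 34 cells, and 5954 in TS, with 273 cells, so the difference in spleen was small in clusters 0 and 19 and larger in cluster 7. TBM was above CBM in clusters 0 and 7.

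The share of inducible subunits was lower with tumor inside clusters 0 and 7. In cluster 0 it was 63.4% in CBM and 59.8% in TBM, against 64.6% in CS and 58.0% in TS, and in cluster 7 63.0%, 58.4%, 63.7%, and 58.4%. In cluster 19 it was 61.6% (57.7 to 65.4) in CS and 59.2% (57.4 to 60.9) in TS, and these intervals overlap. Within cluster 0 the inducible sum was 683 UPM in CBM and 668 in TBM, against 801 in CS and 655 in TS. There the constitutive sum was 395, 448, 439, and 474. Within cluster 7 the inducible sum was 817, 792, 940, and 907, and the constitutive sum 479, 564, 535, and 646. In cluster 19 the inducible sum was 677 in CS and 675 in TS, and the constitutive sum 422 and 466. No inducible sum inside these clusters was higher with tumor. Immediate-early genes, which rise during tissue dissociation, summed to 4303 UPM in CBM and 4706 in TBM, against 8291 in CS and 7125 in TS, and 8 heat shock genes to 2529, 2836, 2895, and 3511. The immediate-early sum was higher in both spleen libraries than in BM. The heat shock sum was higher with tumor in each tissue and highest in TS. Its log2 ratio of tumor over control was 0.17 (0.14 to 0.19) in BM and 0.28 (0.25 to 0.31) in spleen. Of the 4 heat shock genes at the minimum level, 3 were above 0 in BM and 2 in spleen. The part of both lists in the results was not tested.

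Genes that act with the immunoproteasome were read from lists. Of 13 genes of MHC class I presentation, 12 were at the minimum level, and 6 of them were lower by 1.2-fold in TS than in CS and 2 in TBM than in CBM, with 0 and 2 higher. Of all genes, 18.5% were lower in spleen, and in BM 9.68% were lower and 12.2% higher, so the counts of the list in BM were near those of all genes. *B2m*, the light chain of MHC class I, had 1383 UPM in CBM and 1168 in TBM, against 1661 in CS and 1111 in TS, and *H2-K1*, a heavy chain, 1188, 927, 1245, and 959. *Tap1*, the transporter gene beside *Psmb9*, had 101 in CBM and 84.2 in TBM, against 111 in CS and 81.6 in TS, with log2 ratios of -0.26 (-0.37 to -0.15) in BM and -0.45 (-0.62 to -0.26) in spleen. *Tap2*, its partner, was -0.02 and -0.11, with intervals that include 0. The list median was 0.03 in BM and -0.21 in spleen, and the general chaperones *Calr* and *Pdia3* were 0.31 and 0.37 in BM.

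Of 23 interferon response genes, 11 were at the minimum level, with 9 lower by 1.2-fold with tumor in BM and 8 in spleen, against 9.68% and 18.5% of all genes, and none higher. *Irf1*, an interferon-induced transcription factor, had 63.0 UPM in CBM and 42.9 in TBM, against 102 in CS and 69.4 in TS. *Iigp1*, an interferon-induced GTPase, had 37.9 in CBM and 12.3 in TBM, against 32.3 in CS and 8.34 in TS. Both were lower with tumor in each tissue. The list median was -0.48 in BM and -0.43 in spleen, and the ratios above 0 were those of *Ifitm3* and *Isg15* in BM and *Rtp4* in spleen.

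Of 17 other genes of the proteasome system, 16 were at the minimum level, with median log2 ratios of 0.04 in BM and 0.06 in spleen. *Uchl5*, a deubiquitinase that sits on the 19S particle, had 89.0 UPM in CBM and 130.1 in TBM, against 105 in CS and 146 in TS, with ratios of 0.55 (0.44 to 0.65) and 0.47 (0.30 to 0.64). *Usp14*, another such deubiquitinase, was 0.22 (0.11 to 0.34) and 0.35 (0.16 to 0.54). *Nfe2l1*, which raises transcription of subunits when proteasome activity falls short, was 0.07 (-0.08 to 0.22) and -0.29 (-0.56 to -0.02). *Pomp*, the maturation factor of the core, was 0.02 (-0.05 to 0.09) and 0.19 (0.09 to 0.29).

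Across cell classes the share of inducible subunits varied far more than between control and tumor. In 11 named classes with at least 50 barcodes in a library, it ran from 78.0% (77.4 to 78.5) in dendritic-like cells of CS to 12.3% (9.85 to 15.1) in hemoglobin-rich erythroid-like cells of TS. In the control libraries, mast-like, HSPC-like, monocyte-like, and basophil-like cells lay between 61.5% and 65.0%. B lineage-like cells had 57.8% in CBM, granulocyte-monocyte progenitor-like cells 55.3% in CBM and 57.5% in CS, and megakaryocyte-like cells 51.8% and 52.0%. Neutrophil-like cells of TBM had 44.5% (39.2 to 49.9). Early erythroid-like cells had 38.9% in CS and 32.0% in TS, and hemoglobin-rich erythroid-like cells 20.2%, 14.6%, 18.2%, and 12.3% in CBM, TBM, CS, and TS. Many mature cells were removed by the Lin+ depletion, so these classes are the cells that remained in the sort.

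**Figure D3:**
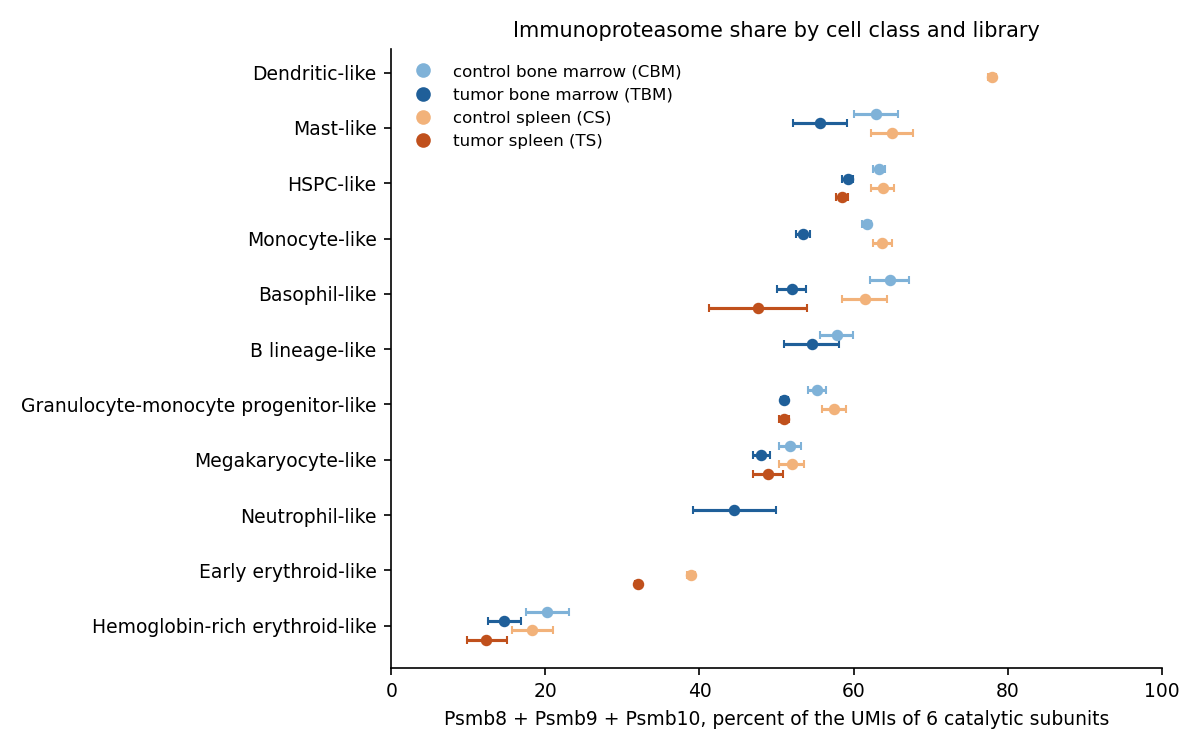
UMIs of *Psmb8*, *Psmb9*, and *Psmb10* as a percent of those of the 6 catalytic genes, by named class and library, with exact 95% binomial intervals. Dendritic-like cells of CS are at 78.0%, hemoglobin-rich erythroid-like cells between 12.3% and 20.2%, and each tumor point lies left of the control point of its tissue.

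*Psmb8* and *Psmb9* were highest in dendritic-like cells of CS, at 992 and 780.3 UPM, and lowest in hemoglobin-rich erythroid-like cells, at 25.6 in TS and 25.0 in TBM. Free RNA of the same libraries held 312 UPM of *Psmb8* and 141 of *Psmb9*, so these lowest levels cannot be told apart from background and no ratio to them is given. There were 28 combinations of named class and library without hemoglobin-rich erythroid-like cells. Among them the lowest level of *Psmb9* was 77.8 in basophil-like cells of TBM. That of *Psmb8* was 130 in neutrophil-like cells of TBM. Free RNA of TBM held 141 of *Psmb9* and 421 of *Psmb8*, so no ratio is given for these genes here either. The ratio of highest to lowest level over these 28 had a median of 3.78 for the 46 members, with *Psmb8* and *Psmb9* included. *Psmg1* had the widest at 15.6 and the base chaperone *Psmd10* the narrowest at 1.95. The lowest level of *Psmg1* was 6.36 in neutrophil-like cells of TBM, with 52 cells and 628754 UMIs in all. So few UMIs do not settle its rank above *Psmc3ip* at 14.0 and *Psmg3* at 11.6. Free RNA levels were not taken for *Psmg1*, *Psmc3ip*, or *Psmg3*, so their lowest levels may also be background. *Psmb10* was not high in dendritic-like cells, where it had 104, and was highest in monocyte-like cells of TBM, at 151. *Psme1* and *Psme2* were highest in dendritic-like cells, at 829.5 and 373. *Psmb5* had 214 there, within its range in HSPC-like cells.

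In erythroid cells *Psmb8* and *Psmb9* were below their levels in HSPC-like cells, while *Psmb10* differed between the erythroid classes. Early erythroid-like cells gave 8451 UPM of all members in CS and 8710.0 in TS, above HSPC-like cells of each library. *Psmb5* had 291 in CS and 313 in TS, *Psmb8* 212 and 179, and *Psmb9* 134 and 79.4. *Psmb10* had 104 in CS and 96.6 in TS there, against 118 and 120.3 in HSPC-like cells. In hemoglobin-rich erythroid-like cells *Psmb5* had 136 in CBM and 139 in TBM, against 145 in CS and 179 in TS, and *Psmb8* 41.1, 37.5, 35.0, and 25.6, with *Psmb10* between 9.82 and 20.7. The free RNA of barcodes with at most 100 UMIs held 484, 421, 468, and 312 UPM of *Psmb8*. After 10% of the UMIs were taken away in the proportions of this free RNA, the share in hemoglobin-rich erythroid-like cells was 5.66% in CBM and 2.96% in TBM, against 6.23% in CS and 5.65% in TS, and without cells of high doublet score it was 8.12%, 10.3%, 12.3%, and 9.94%. The level of the share in this class thus depended on both steps, and it stayed the lowest of the named classes in them.

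Detection of *Psmb9* per cell gave the same order of these 3 classes. With each cell thinned to 2000 UMIs, *Psmb9* was found in 77.0% of dendritic-like cells of CS, 27.7% to 37.6% of HSPC-like cells over the 4 libraries, and 2.67% to 7.69% of hemoglobin-rich erythroid-like cells, the class taken as background. Without thinning these were 97.2%, 84.4% to 92.6%, and 22.0% to 43.1%. Median depth was 24532 UMIs in the dendritic-like cells, 13540 to 19513 in HSPC-like cells, and 12156 to 19044 in the erythroid class. Thinning left out 2 dendritic-like cells and 1 HSPC-like cell of TS.

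The share was lower with tumor in other classes too. With at least 50 barcodes in both libraries, 11 named classes or unnamed clusters could be compared in BM and 9 in spleen. All were lower with tumor at the thresholds above, and the interval was below 0 in 10 of 11 in BM and 9 of 9 in spleen. The exception was B lineage-like cells, at -3.26 points (-7.45 to 0.917). Basophil-like cells differed most, by -12.7 points (-15.9 to -9.54) in BM and -13.9 points (-20.8 to -6.81) in spleen, where TS had 66 cells. Monocyte-like cells differed by -8.26 points (-9.34 to -7.18) in BM, and early erythroid-like cells by -6.91 points (-7.53 to -6.29) in spleen. Granulocyte-monocyte progenitor-like cells differed by -4.25 points (-5.49 to -3.01) in BM and -6.56 points (-8.23 to -4.89) in spleen, and megakaryocyte-like cells by -3.77 points (-5.53 to -2.00) and -3.06 points (-5.54 to -0.575). The last value was -1.42 points with free RNA removed and -1.45 with a mean over cells. Hemoglobin-rich erythroid-like cells differed by -5.58 points (-9.11 to -2.11) in BM and -5.93 points (-9.66 to -2.12) in spleen, but without cells of high doublet score the BM difference turned to 2.23 points and the spleen difference was -2.37. Between tissues CS was below CBM in 4 of 9 and TS below TBM in 4 of 6. Classes of 1 tissue share a pair of libraries and are not separate observations of tumor-bearing mice.

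**Figure D4:**
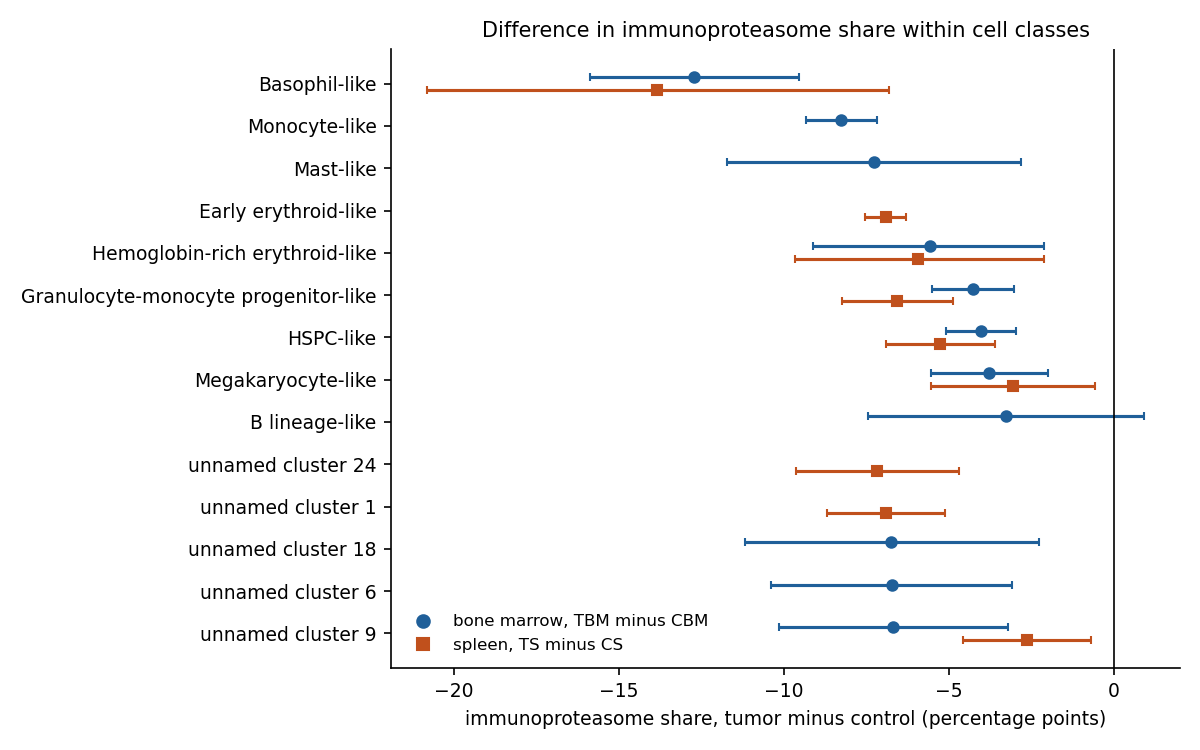
Difference of tumor minus control, in percentage points, in the share of inducible subunits within each class or unnamed cluster with at least 50 barcodes in both libraries, with 95% intervals combined from the exact intervals of both shares. All points lie below 0, and the interval of B lineage-like cells alone reaches above it.

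Some classes were made of different clusters in the libraries compared. Granulocyte-monocyte progenitor-like cells were mostly of cluster 4 in CBM and CS, of 4 and 8 in TBM, and mostly of 8 in TS. Basophil-like cells were mostly of cluster 3, with 20 as common as 3 in TBM, monocyte-like cells were of 13 and 11 in CBM and mostly of 11 in TBM, and early erythroid-like cells were mostly of 5 in CS and of 2 and 5 in TS. Inside single clusters the share was lower with tumor in 13 of 13 in BM and 8 of 8 in spleen, from -2.62 to -13.4 points. In spleen it differed by -13.4 points (-15.7 to -11.2) in cluster 4 and -12.2 points (-13.0 to -11.4) in cluster 5, more than in the classes they belong to.

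*Psmb9* was lower with tumor in 11 of 11 in BM and 9 of 9 in spleen, with the interval below 0 in 9 and 7. *Psmb8* was lower in 9 of 11 in BM and 5 of 9 in spleen, and *Psmb10* in 3 of 11 in BM and 5 of 9 in spleen. *Psme1* was lower in 8 of 11 in BM and 7 of 9 in spleen, and *Psme2* in 7 of 11 and 3 of 9. Their opposite directions in HSPC-like cells thus did not hold in every class. The sum of the inducible catalytic genes was lower in 10 of 11 in BM and 7 of 9 in spleen. That of the constitutive catalytic genes was higher in 9 of 11 in BM and 8 of 9 in spleen. Which sum differed more depended on the class. In spleen their log2 ratios were -0.34 and 0.09 in early erythroid-like cells, and 0.03 and 0.41 in granulocyte-monocyte progenitor-like cells. Beside these, the summed MHC class I list and *B2m* were lower in every comparison, and *Tap1* was lower in 11 of 11 in BM and 8 of 9 in spleen. The summed interferon list was lower in 5 of 11 in BM and 6 of 9 in spleen, and was higher with tumor in monocyte-like cells and granulocyte-monocyte progenitor-like cells, where the share was lower. The summed members were higher in 9 of 11 in BM and 8 of 9 in spleen, and B lineage-like cells were an exception at -0.25 on the log2 scale.

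Free RNA differed in the same direction. In barcodes with at most 100 UMIs the share was 62.4% (60.7 to 64.1) in CBM and 52.0% (50.5 to 53.5) in TBM, against 57.5% (56.4 to 58.6) in CS and 43.6% (42.2 to 45.1) in TS. After 10% of the UMIs of each class were taken away in the proportions of this free RNA, the share in HSPC-like cells differed by -3.22 points in BM and -4.65 in spleen. In hemoglobin-rich erythroid-like cells the difference went from -5.58 to -2.70 points in BM and from -5.93 to -0.585 in spleen. The 10% was set and not estimated from the data.

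Over the 32 combinations of named class and library, the share was higher where the summed MHC class I genes were higher, with Pearson's r of 0.88 and Spearman's rho of 0.80. Without hemoglobin-rich erythroid-like cells, over 28, these were 0.78 and 0.71. With the summed interferon list Pearson's r and Spearman's rho were 0.41 and 0.37 over 32, and 0.29 and 0.22 over 28. That sum leans on *Ifitm3* in HSPC-like cells. The share and the summed members gave 0.06 and -0.01 over 32, and -0.20 and -0.20 over 28. The summed members and the summed heat shock genes gave 0.72 and 0.68 over 32, and 0.70 and 0.64 over 28. With the summed G2 and mitosis genes the members gave -0.02 and 0.32 over 32, and 0.58 and 0.60 over 28. The points share libraries, depth, and free RNA, and these values are descriptions.

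**Figure D5:**
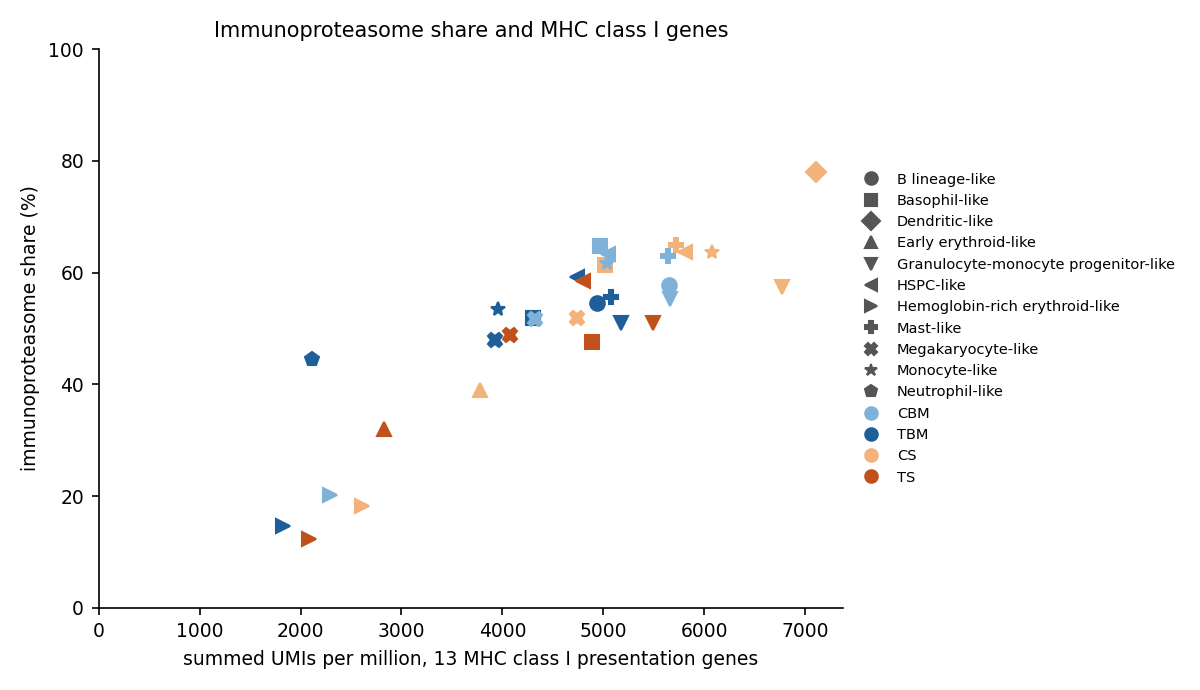
Share of inducible subunits in percent against the summed UPM of 13 MHC class I presentation genes, with 1 point for each named class (shape) and library (color). Hemoglobin-rich erythroid-like cells are at the lower left and dendritic-like cells at the upper right, and in each class and tissue the tumor point lies lower and to the left of the control point.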

How the data were processed

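Spleen and BM cells were profiled as 3′ droplet libraries, 1 each for CBM, TBM, CS, and TS. The deposited values are whole-number UMI counts per gene and barcode, made by the authors with Cell Ranger (4.0 and mm10 in the submitters' processing notes) and not normalized. They hold barcodes from before the study's selection of cells and removal of ambient RNA. Library totals ran from 101811035 to 176094297 UMIs, of which kept barcodes held 58.1% to 79.4%.

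Barcodes with at least 1000 genes and at most 10% mitochondrial UMIs were clustered on Pearson residuals of 19728 genes (theta 100), 50 principal components, and 20 neighbors with leidenalg 0.10.2 (resolution 1.2), scikit-learn 1.9.0, and scanpy 1.11.5. A cluster was named when at least 3 markers of a class, and no fewer than were missing, were at least 2-fold above other cells, with more of them among its top 10 genes than of any other class. Between 17.8% and 49.2% of barcodes of a library stayed unnamed, and names may differ from the study's. Doublets were removed only in an alternative.

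UMIs were summed by class and library and divided by the summed total. Intervals were exact Poisson, Clopper-Pearson, or conditional binomial (SciPy 1.17.1). The code of the ratio step was run on simulated Poisson counts, the model that its intervals assume. That run leaves out variation between cells and mice, so it checks the code only. The text names the catalytic and PA28 genes, members under the level of 20, and the 3 highest and 3 lowest ratios of each comparison. Other genes stand as examples of their role, chosen after their values were seen. The members and lists were chosen with earlier results of these data known. Gene positions are from GENCODE (GRCm38), and RefSeq had promoter windows for 41 of 49 members, *Psmb7* not among them. Counting strand is not given in the sources used here, so overlapping genes on opposite strands may share reads. The overlap of *Psmb9* and *Tap1* lies at the 5′ ends of both genes, whereas these UMIs are counted at the 3′ end.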

Additional observations from a re-analysis of the deposited data

How the results depend on the processing

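Alternatives were a minimum of 350 genes, no mitochondrial limit, removal of 10% free RNA, removal of high doublet scores, a mean over cells, another scaling total, no minimum level, a gate on 4 genes in place of clusters, and, chosen after seeing the data, HSPC-like clusters 0 and 7 alone. None turned the direction of the share or of the summed members in HSPC-like cells for tumor against control. The difference in share ran from -6.79 to -3.22 points in BM and from -9.37 to -4.65 in spleen under these. Across classes the exception was hemoglobin-rich erythroid-like cells of BM, at 2.23 without high doublet scores. Shares of single classes and counts at 1.2-fold moved too, and of the shares those of hemoglobin-rich erythroid-like cells moved most, to between 2.96% and 6.23% with free RNA removed. The cause was not tested for these or for the main values in HSPC-like cells that moved, which follow. The share in HSPC-like cells was 64.3% in CBM and 57.5% in TBM, against 66.4% in CS and 57.0% in TS with the 4-gene gate. It was 58.4% in TBM within cluster 7. It was 60.1% in TBM and 60.0% in TS with free RNA removed. The log2 ratio of summed members was 0.23 for TBM over CBM and 0.17 for CS over CBM with the 4-gene gate. It was 0.0507 for TS over CS, 0.13 for TBM over CBM and 0.0481 for TS over TBM within cluster 0. It was 0.16 for TS over TBM and 0.0703 for CS over CBM within cluster 7. It was 0.27 for TS over CS and 0.21 for TS over TBM with free RNA removed. It was 0.20 for TS over CS and 0.12 for TBM over CBM with a mean over cells. It was 0.22 for TS over CS, 0.14 for TS over TBM, 0.14 for TBM over CBM, and 0.0555 for CS over CBM with another scaling total. The number of members past 1.5-fold, 0 in the main setting, was 3 for TS over CS with the 4-gene gate, against 8.74% of all genes in that setting. It was 2 for TS over CS (16.6%), 1 for TS over TBM (12.8%), and 1 for CS over CBM (4.97%) within cluster 0, 3 for TS over CS (11.4%) within cluster 7, and 2 for TS over CS (8.17%) with free RNA removed. With no minimum level it was 2 for TS over CS (38.9%), 2 for TBM over CBM (31.0%), and 1 for CS over CBM (34.4%). Each such count was below the share of all genes. No paired analysis was made, because each group is 1 library. Depth limits the small groups, CS with 149 HSPC-like cells and cluster 0 of TS with 51. The CS cells were 77 in cluster 0, 38 in cluster 7, and 34 in cluster 19.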

Other observations

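Clusters that were not named gave further values of the share of inducible subunits. It was 57.1% (56.4 to 57.8) in cluster 12 of CS and 55.2% (53.7 to 56.7) in cluster 14 of TS, which both have *Scin* among their leading genes. It was 67.1% (64.9 to 69.2) in cluster 25 of CBM, with *Cd209a* and *Cx3cr1* among its leading genes. Cluster 24, with the T cell genes *Trbc1*, *Tcf7*, and *Bcl11b* among its leading genes, had 68.1% (66.2 to 70.0) in CS and 60.9% (59.3 to 62.5) in TS, both above the HSPC-like cells of the same library. Cluster 26 of TS, with the erythroid gene *Cldn13* among its leading genes, had 38.0% (33.1 to 43.1).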
